A study of Mus musculus with 40 samples.

Results

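Neural stem cells (NSCs) that had received 4-hydroxytamoxifen (4-OHT) for 96 h were compared with cells that had received the vehicle for the same time. The comparison holds 3 arrays of 4-OHT and 3 arrays of vehicle, chosen by their titles alone, which give the agent, the time and the replicate letters A, B and C. These are 6 of the 40 arrays in the series, and each 4-OHT array was compared with the vehicle array of its own letter. The labels describe primary mouse NSCs taken from the telencephalon at embryonic day 13.5, on a 129/Svj;C57Bl/6 hybrid background. The mice carried floxed Id1 (Id1L/L), floxed Id2 (Id2L/L), null Id3 (Id3-/-) and Rosa-Cre-ER, a recombinase that 4-OHT activates. Cells grew on laminin, with both FGF-2 and EGF present at 20 ng/ml. The 4-OHT cells received 250 nM of the drug, which was dissolved in 100% ethanol, and the control cells received vehicle alone. Both groups carried the same alleles: Id3 was null in 4-OHT and vehicle cells alike, and vehicle cells differed from wild type in that respect. Cre-ER was expressed from the Rosa locus, which is active in most cell types, so the deletion was not limited to a cell type by its promoter. Whether A, B and C were grown from different animals or in different cultures is not in the labels, and the spread between arrays behind each p-value may be technical. That spread was estimated over the arrays of all times, so a p-value does not measure how well the 3 pairs of 96 h agreed. In RNA from whole cultures, fewer cells of a type and less RNA per cell cannot be told apart.

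Id proteins are helix-loop-helix proteins without a DNA-binding region. They pair with E proteins such as Tcf3, Tcf4 and Tcf12 and keep them, and the basic helix-loop-helix (bHLH) partners that need them, from the DNA element called the E-box, CANNTG. In neural progenitors Id proteins are known to hold back differentiation, and the Olig factors of the oligodendrocyte lineage are among the bHLH proteins they affect. Oligodendrocyte precursors carry the growth factor receptor Pdgfra and the transcription factor Sox10, pass through a premyelinating stage marked by Gpr17 and Enpp6, and end as myelin-forming cells that make Mbp, Mag and galactolipids.

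Each array reported a mean bead intensity for every probe, and levels are given as normalized log2 intensity. Between 16750 and 19186 probes were detected on the 4-OHT arrays and between 17410 and 18344 on the vehicle arrays (detection p under 0.01). Both arrays of replicate C stood apart from A and B: the first principal component of the 6 arrays, 48.6% of their variance, separated C from A and B, and the second, 36.9%, separated the agents within letters. The 95th percentile of raw intensity was 932, 1183 and 1005 on the 4-OHT arrays A, B and C, and 1109, 1210 and 654 on the vehicle arrays. The array numbers in the labels were 33 and 34 for 4-OHT A and B and 35 and 36 for vehicle A and B, against 59 and 60 for the C arrays, so the letter C and this number series cannot be told apart. C deviated from A and B in the same direction under both agents. A comparison within letters removes the part that both agents share, but not a 4-OHT effect that itself differs in C. The main counts are also given without C.

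**Figure D1:**
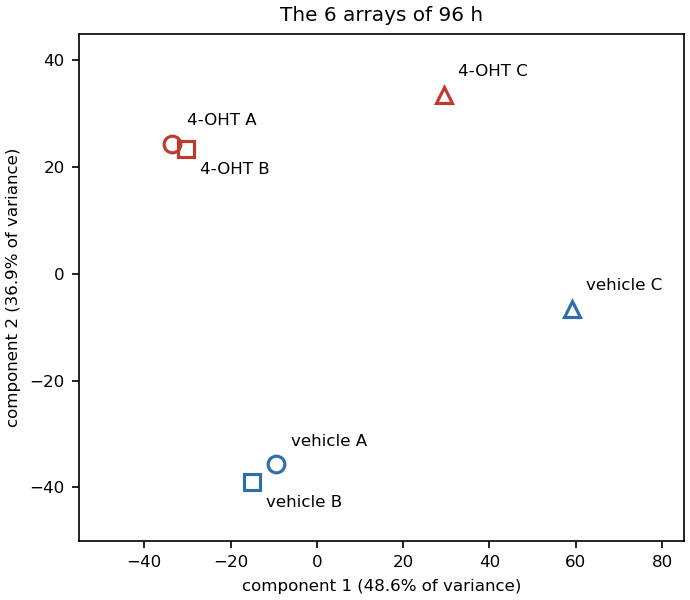
Principal components of the 6 arrays of 96 h over the tested probes (axes in units of log2 level, with the share of variance). Red marks are 4-OHT and blue marks vehicle; both C arrays lie to the right of A and B, and within each letter 4-OHT lies above vehicle.

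The targeted transcripts were near background in 4-OHT cells. Id1 had levels of 4.27, 4.30 and 4.29 on the 4-OHT arrays A, B and C, against 9.37, 9.28 and 8.59 on the vehicle arrays. On all 3 4-OHT arrays its detection p was 0.05 or more, so its fold is a bound: at least 24.2-fold lower (adjusted p = 2.04e-12). Id2, by its brightest probe, had 5.11, 4.93 and 4.95 in 4-OHT cells and 10.30, 10.06 and 9.47 in vehicle cells, 30.7-fold lower (difference of -4.94 ± 0.23 (SE), adjusted p = 1.28e-12). The other Id2 probes gave differences of -2.67 and -2.39 and were also called. Id3, null in every cell, was not tested, since its detection p was under 0.01 on 1 of the 40 arrays and the filter asked for 3: its mean level was 4.48 ± 0.09 with 4-OHT and 4.42 ± 0.19 with vehicle (SD, n = 3 each). The position of these probes with respect to the floxed exons was not analysed. Id4, the family member that was not targeted, had 8.09, 8.34 and 7.97 in 4-OHT cells, against 4.96, 4.96 and 4.52 in vehicle cells, and rose 9.99-fold (adjusted p = 1.58e-10), and its second probe rose 4.63-fold.

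Of 21740 probes tested, 2540 differed at 96 h (adjusted p under 0.05), which is 11.7% of those tested. The 1167 that rose were 5.37% and the 1373 that fell 6.32%. Of the called probes, 347 were over 2-fold higher and 325 over 2-fold lower. The sign was the same in all 3 letters for 2483 of the 2540 called probes. The calls were made on these same within-letter differences, so this count follows largely from the selection and is not separate support. Counted over all tested probes, 4147 (19.1%) had every 4-OHT array above or below every vehicle array, and 1835 of these were called. With 1 probe per gene, 718 of 11087 genes rose (6.48%) and 865 fell (7.8%), and the median difference of all genes was 0.00. The count depended on the replicate letters: 979 probes were called when letters were ignored, 1353 without replicate A, 1367 without B and 2186 without C. Of the calls made without the letters, 53.4% were higher, against 45.9% with them, and with median scaling in place of quantile scaling 57.0% of 1447 calls were higher.

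Among called genes whose groups lay apart, the largest rises were in genes of several functions, with genes ranked by their probe with the smallest p. Mbp (difference of 3.53) and Sox10 (2.98) were outside this ranking, because their groups overlapped across letters. Dpp10, an auxiliary subunit of A-type potassium channels, had 9.88, 9.92 and 8.85 in 4-OHT cells, against 5.91, 5.81 and 4.49 in vehicle cells, 17.7-fold higher (adjusted p = 1.36e-12). Tafa4, a secreted chemokine-like protein, had 10.52, 10.82 and 10.77 with 4-OHT and 6.86, 6.81 and 6.68 with vehicle, 15.1-fold higher (adjusted p = 8.66e-13). Both genes had wide gaps between the groups in every letter, and for Tafa4 the arrays of each group lay close together. Gpr17, a receptor of committed oligodendrocyte precursors, had 11.65, 11.62 and 10.48 in 4-OHT cells and 7.89, 8.24 and 6.38 in vehicle cells (13.4-fold, adjusted p = 1.86e-10). Lims2, which binds integrin-linked kinase at adhesions, had 10.77, 10.54 and 8.89 with 4-OHT and 7.12, 7.42 and 5.37 with vehicle (10.8-fold, adjusted p = 2.04e-12). In both, the C arrays were the lowest of their group, while the difference within C (4.10 and 3.52) was close to that in A (3.76 and 3.65) and B (3.39 and 3.11). The potassium-dependent sodium-calcium exchanger Slc24a3 had 11.38, 11.22 and 9.75 in 4-OHT cells and 8.34, 8.16 and 6.85 in vehicle cells, 7.99-fold higher. The integrin subunit Itga9 rose 7.55-fold, with 8.34, 8.26 and 8.66 against 5.08, 5.35 and 6.08, and a second of its 3 tested probes was also called. The others among the 14 genes with the largest rises were Enpp6, Gal3st1 and Fa2h, described with the myelin genes, Id4, Ftdc1, at least 11.3-fold higher and not detected in vehicle cells, the F-BAR protein Pstpip2 (6.98-fold), the receptor phosphatase Ptpre (6.31-fold, called by 1 of its 3 probes) and Syndig1l (6.26-fold). The brightest Ptpre probe did not pass (difference of -0.008, adjusted p = 0.99).

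Under the same rule, the largest falls beyond Id1 and Id2 were likewise varied. Cntnap4, a neurexin-like adhesion protein, had 4.71, 5.33 and 5.30 in 4-OHT cells, against 8.73, 8.81 and 6.97 in vehicle cells, 8.29-fold lower (adjusted p = 9.68e-08). Car3, a cytosolic carbonic anhydrase, had 5.56, 5.78 and 8.08 with 4-OHT and 8.98, 8.80 and 10.55 with vehicle, 7.82-fold lower (adjusted p = 5.76e-08). Replicate C was low for Cntnap4 in vehicle cells and high for Car3 under both agents, and neither gene's groups overlapped. Timp4, an inhibitor of metalloproteinases, had 7.53, 7.47 and 5.57 in 4-OHT cells and 10.35, 10.18 and 7.87 in vehicle cells (6.09-fold lower, adjusted p = 1.28e-09). Cbs, the first enzyme of transsulfuration, had 4.87, 4.85 and 4.92 with 4-OHT and 7.19, 7.02 and 7.89 with vehicle (5.61-fold lower). The lysosomal protease gene Ctsc had 7.59, 7.24 and 7.30 in 4-OHT cells and 9.77, 9.82 and 9.02 in vehicle cells (4.47-fold lower). The iron-binding lipocalin Lcn2 was likewise undetected on the 4-OHT arrays and at least 5.58-fold lower, but its vehicle levels were spread (6.45, 5.95 and 8.48) and the call was lost without C (difference of -1.88, adjusted p = 0.0662). The remaining genes of the 14 largest falls were Chchd10 (5.42-fold), the lipogenic regulator Thrsp (4.96-fold), the small GTPases Rerg (4.84-fold) and Diras2 (4.25-fold), Gdpd2 (4.71-fold), and the heparan sulfate sulfotransferase Hs3st1 (4.55-fold).

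**Figure D2:**
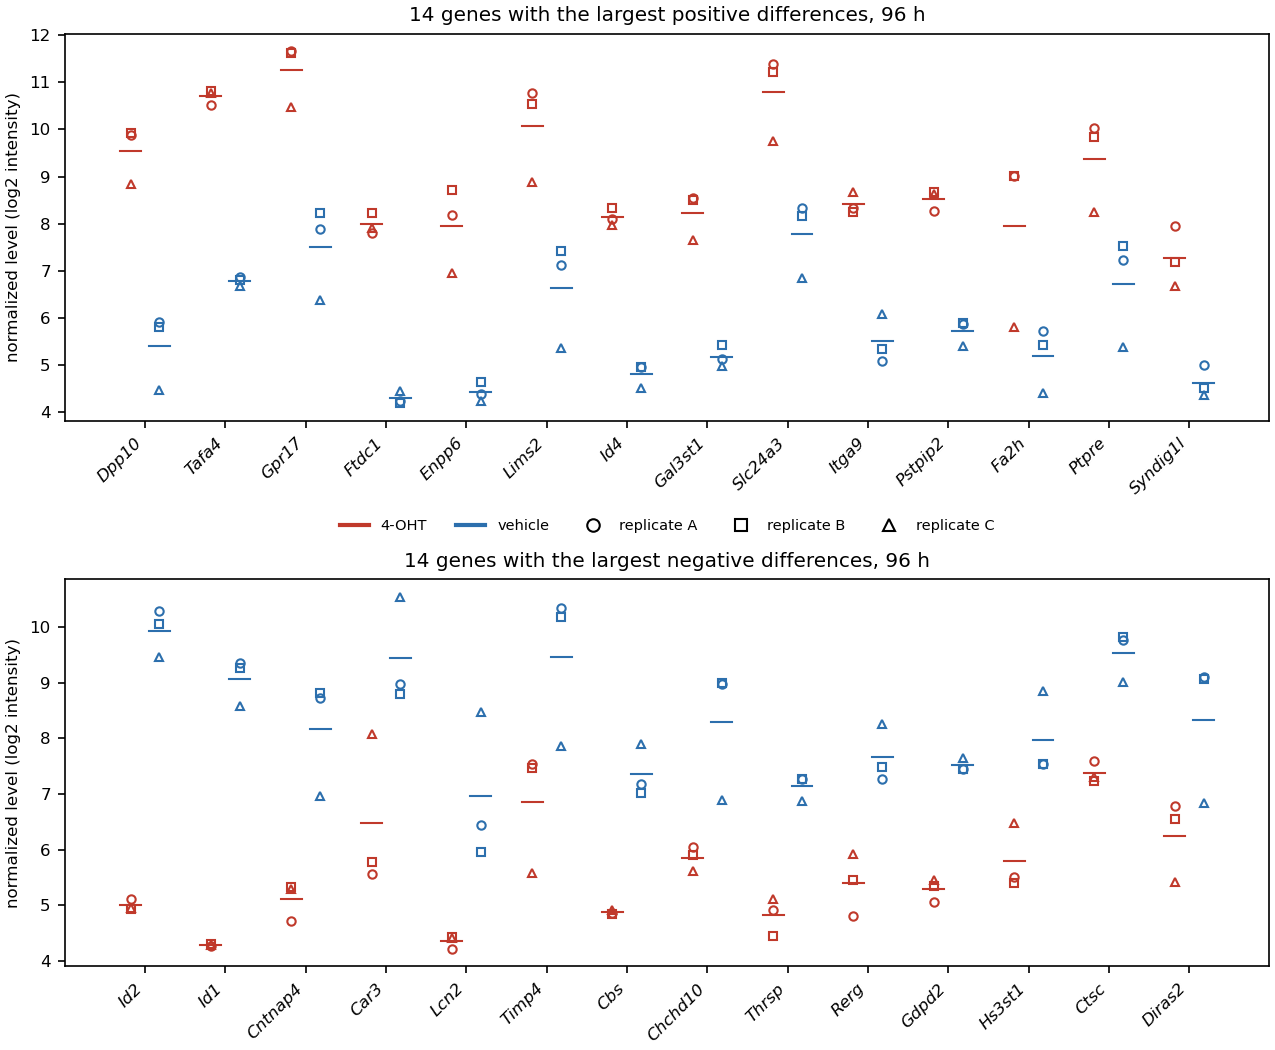
Normalized level (log2 intensity) on each array for the 14 genes with the largest positive and the 14 with the largest negative differences at 96 h; red is 4-OHT, blue is vehicle, symbols mark replicate letters and bars the means of 3 arrays. All arrays of each group lie apart for every gene shown, as the naming rule required, and the C arrays often sit lowest in both groups.

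The E-box is the element that Id proteins keep bHLH factors from, so its letters were looked up in promoter windows of RefSeq build GRCm38.p6, 250 bases before to 50 bases after the gene start. The pattern CANNTG, which reads the same on both strands, was in 66.2% of the 541 windows of genes that rose, 65.3% of the 691 of genes that fell and 62.5% of the 8979 of all genes tested. CAGCTG, a form within CANNTG, was in 21.3%, 18.4% and 14.9%. CAGGTG or its reverse complement CACCTG was in 21.8%, 16.2% and 16.9%. A match is only a description of letters. With every CANNTG in capitals, these are the windows of the 3 largest rises and 3 largest falls that had a single window in the table with a match. They are those of Dpp10 (chr1:124045510-124045809, minus strand), Tafa4 (chr6:97060362-97060661, minus strand), Ftdc1 (chr16:58616929-58617228, minus strand), Id2 (chr12:25096043-25096342, minus strand), Lcn2 (chr2:32387690-32387989, minus strand) and Timp4 (chr6:115252156-115252455, minus strand).
Dpp10: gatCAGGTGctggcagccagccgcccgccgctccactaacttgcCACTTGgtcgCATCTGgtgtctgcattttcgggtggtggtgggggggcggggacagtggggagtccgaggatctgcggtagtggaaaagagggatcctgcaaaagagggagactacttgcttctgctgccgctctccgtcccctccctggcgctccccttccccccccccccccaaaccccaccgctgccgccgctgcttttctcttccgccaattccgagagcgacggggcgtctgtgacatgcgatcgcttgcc
Tafa4: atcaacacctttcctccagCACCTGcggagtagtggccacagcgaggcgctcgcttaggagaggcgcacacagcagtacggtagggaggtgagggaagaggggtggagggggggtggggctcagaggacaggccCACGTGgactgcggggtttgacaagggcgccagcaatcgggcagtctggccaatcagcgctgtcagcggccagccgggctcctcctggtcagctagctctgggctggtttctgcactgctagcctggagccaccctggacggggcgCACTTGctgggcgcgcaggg
Ftdc1: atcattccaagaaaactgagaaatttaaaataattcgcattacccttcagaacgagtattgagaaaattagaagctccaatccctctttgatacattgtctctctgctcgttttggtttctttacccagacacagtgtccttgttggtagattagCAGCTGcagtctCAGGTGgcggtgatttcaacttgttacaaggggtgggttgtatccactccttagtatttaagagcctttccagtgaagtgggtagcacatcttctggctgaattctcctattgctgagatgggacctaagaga
Id2: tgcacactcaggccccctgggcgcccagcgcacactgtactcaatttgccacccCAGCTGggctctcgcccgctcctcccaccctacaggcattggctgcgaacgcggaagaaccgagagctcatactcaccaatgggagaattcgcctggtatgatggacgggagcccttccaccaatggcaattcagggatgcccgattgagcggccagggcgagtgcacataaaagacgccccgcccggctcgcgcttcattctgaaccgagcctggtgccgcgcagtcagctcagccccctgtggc
Lcn2: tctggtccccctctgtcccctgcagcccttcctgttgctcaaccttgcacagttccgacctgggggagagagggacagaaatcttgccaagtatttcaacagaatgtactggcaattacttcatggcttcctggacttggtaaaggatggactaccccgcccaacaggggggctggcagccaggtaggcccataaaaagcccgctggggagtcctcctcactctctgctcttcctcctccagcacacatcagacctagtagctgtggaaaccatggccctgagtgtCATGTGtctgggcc
Timp4: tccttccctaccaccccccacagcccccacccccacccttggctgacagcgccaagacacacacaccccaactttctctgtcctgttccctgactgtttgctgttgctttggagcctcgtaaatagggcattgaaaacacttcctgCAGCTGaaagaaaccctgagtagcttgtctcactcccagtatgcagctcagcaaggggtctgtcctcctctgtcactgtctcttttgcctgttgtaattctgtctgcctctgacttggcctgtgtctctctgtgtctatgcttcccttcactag
The windows of Dpp10 and Tafa4 held 3 CANNTG matches each and that of Ftdc1 held 2, 1 of them CAGCTG and 1 CAGGTG. Those of Id2, Lcn2 and Timp4 held 1 each, which was CAGCTG in Id2 and Timp4.

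Partners of Id proteins were read from a list of E proteins and bHLH factors. Of its 13 tested genes, 0 rose and 2 fell, with a median difference of 0.15. Over all genes tested, 6.48% rose and 7.8% fell. Hes6, an inhibitor of Hes1, had a level of 9.29 ± 0.18 in 4-OHT cells and 10.28 ± 0.21 in vehicle cells, 1.99-fold lower (adjusted p = 6.91e-06). The other called member was Bhlhe40, a clock-related repressor (difference of -0.88). The E protein genes did not pass: the differences were -0.27 for Tcf3, -0.02 for Tcf4 and 0.45 for Tcf12. Neither did Olig2 (0.89, adjusted p = 0.10), Olig1 (0.27) or Hes5 (1.01, adjusted p = 0.0562), which had 8.95, 8.94 and 7.61 in 4-OHT cells and 8.55, 8.54 and 5.38 in vehicle cells. Its size thus came mostly from replicate C. Both falls lost their call with median scaling, where 0 fell and 1 rose, and 1 fell when letters were ignored. With the 96 h arrays fitted alone and the letters kept, 5 rose and 2 fell. In the main limma fit 7 of the 13 had an unadjusted p under 0.05, so the absence of called rises depended on the fit.

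Genes of oligodendrocyte precursors rose together. Of 16 tested, 9 rose and 0 fell, with a median difference of 0.86 against 0.00 for all genes, and all 16 differences were positive. Sox10, a transcription factor of the whole lineage, had 10.66, 10.39 and 6.67 in 4-OHT cells and 7.09, 7.30 and 4.38 in vehicle cells, 7.91-fold higher (adjusted p = 1.57e-09). Its groups overlapped across letters because both C arrays were low, but 4-OHT was higher within every letter. Pdgfra, the receptor of the mitogen PDGF, had 10.17, 10.41 and 9.01 with 4-OHT and 8.54, 8.86 and 7.08 with vehicle (3.25-fold, adjusted p = 3.84e-07). The secreted C1q-like protein C1ql1 had a difference of 2.05, Bcas1 of 1.66 and the receptor Gpr37l1 of 1.47. Smaller rises were in Lhfpl3 (0.82), Nkx2-2 (0.74) and the proteoglycan Cspg4 (0.69), whose call was lost without C (adjusted p = 0.0891). Sox8 (1.09), Neu4, Vcan, Fyn and Ptprz1 did not pass. Without C, 8 members rose, and 5 rose without the letters.

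Most tested genes of premyelinating and myelin-forming cells rose. Of 23 tested, 15 rose and 0 fell, with a median difference of 1.71. Mbp, a main protein of compact myelin, had 11.54, 11.54 and 7.56 in 4-OHT cells, against 7.61, 7.46 and 4.99 in vehicle cells, 11.6-fold higher (adjusted p = 1.40e-10). The 4-OHT array C lay at the level of vehicle A and B, and within each letter 4-OHT was higher. Of the 5 tested Mbp probes 4 were called, and the others gave differences between 0.08 and 1.88. Enpp6, a choline phosphodiesterase of newly forming oligodendrocytes, had 8.18, 8.71 and 6.95 in 4-OHT cells and 4.40, 4.65 and 4.25 in vehicle cells (11.4-fold, adjusted p = 2.91e-08). Cnp, a phosphodiesterase of myelin, had 10.90, 10.62 and 9.98 with 4-OHT and 7.87, 7.80 and 8.16 with vehicle (5.88-fold, adjusted p = 7.11e-09). Mag, an adhesion protein of the inner myelin membrane, had 7.58, 7.38 and 4.88 with 4-OHT, against 4.46, 4.72 and 4.21 with vehicle, so that its difference was 3.12 and 2.66 in letters A and B and 0.67 in C. The tight junction protein Cldn11 (2.45), the deacetylase Sirt2 (1.88), the repressor Zfp488 (1.78, at least 2.96-fold), Pllp (1.72), Opalin (1.71), Tspan2 (1.04), Bin1 (0.98) and Nkx6-2 (0.74) also rose. On the 4-OHT arrays the summed intensity of the 33 genes of this list with a probe was 13931 to 18438, against 7490 to 8176 on vehicle arrays. Not all of the program was seen: 10 of the 33, among them Myrf, Mog, Mobp and Mal, were detected on 0 of the 6 arrays, and Bmp4, Tcf7l2 and Adamts4 did not pass. Without C, 16 members rose, and 14 rose without the letters.

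The enzymes that make myelin galactolipids were part of this rise. Ugt8a, which adds galactose to ceramide, had a difference of 2.37 ± 0.17 (SE). Gal3st1, which sulfates the product to sulfatide, had 8.54, 8.51 and 7.65 in 4-OHT cells and 5.14, 5.43 and 4.98 in vehicle cells (8.28-fold, adjusted p = 6.94e-10). Fa2h, which hydroxylates the fatty acid, had 9.01, 9.02 and 5.81 with 4-OHT and 5.74, 5.44 and 4.40 with vehicle (6.75-fold, adjusted p = 8.44e-07). The glycolipid transfer protein gene Gltp rose by 1.16 and the upstream desaturase gene Degs1 fell by 0.49, a call lost without the letters and with median scaling. The steps before ceramide did not follow: Sptlc1, Sptlc2, Kdsr and Cers2 did not pass, and the median of all 11 tested members was -0.04. Cholesterol synthesis genes did not rise either, with 0 higher and 1 lower of 18 tested (Tm7sf2, -0.59, not called without the letters or with median scaling) and a median of -0.04. Among all genes tested, 6.48% were higher and 7.8% lower.

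Most astrocyte genes fell. Of 22 tested, 13 fell and 2 rose, with a median difference of -0.73. Acsbg1, an acyl-CoA synthetase, had 7.29, 7.36 and 8.49 in 4-OHT cells and 9.75, 9.79 and 9.99 in vehicle cells, 4.37-fold lower (adjusted p = 9.64e-08), and its other tested probe, with the smaller p, fell by 2.05. Hopx, a homeodomain protein of radial glia and astrocytes, had 7.32, 7.54 and 7.47 with 4-OHT and 8.84, 9.01 and 10.61 with vehicle (4.12-fold lower). The bicarbonate cotransporter gene Slc4a4 had 6.5, 6.29 and 6.66 in 4-OHT cells, against 7.91, 8.13 and 8.59 in vehicle cells (3.32-fold lower). All 3 genes had lower levels on every 4-OHT array than on any vehicle array. Gfap, the intermediate filament of astrocytes, had 4.96, 4.86 and 4.85 with 4-OHT and 6.43, 5.97 and 7.14 with vehicle (3.08-fold lower, adjusted p = 2.56e-07), but its second probe did not pass (-0.27). The gap junction gene Gja1 (-1.43), the endothelin receptor gene Ednrb (-1.42), the glutamate transporter genes Slc1a3 (-1.21) and Slc1a2 (-1.05), Agt (-1.0), Aldh1l1 (-0.95), Aldoc (-0.82), Nfia (-0.57) and Aqp4 (-0.48) also fell. The exceptions were Sox9 (0.86) and S100b (0.82), which rose, and both are also made in oligodendrocyte lineage cells. The summed intensity of the 24 astrocyte genes with a probe was 17690 to 22896 on 4-OHT arrays and 26976 to 37819 on vehicle arrays. Without C, 11 members fell, and 7 fell without the letters, while with median scaling 11 fell and 1 rose.

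Neural stem cell genes moved in both directions, where over all genes tested 6.48% rose and 7.8% fell. Of 19 tested, 5 fell and 2 rose (median of -0.26), without C, 4 fell and 1 rose, without the letters 3 fell and 1 rose, and with median scaling 2 fell and 1 rose. Otx2, a homeodomain factor that choroid plexus cells also make, had 7.38, 7.72 and 7.91 in 4-OHT cells and 9.27, 9.42 and 8.94 in vehicle cells, 2.91-fold lower. Egfr, the receptor of the EGF in the medium, had 10.08, 10.17 and 9.80 with 4-OHT and 11.18, 11.40 and 10.70 with vehicle, 2.10-fold lower (adjusted p = 3.46e-08). The other falls were in Slc1a3, shared with the astrocyte list, Lfng (-0.94) and Vim (-0.53), and the rises in Tnc (0.76) and Nes (0.61). Sox2 (-0.26), Pax6 (-0.14), Hes1 (-0.12) and Notch1 (0.00) did not pass.

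**Figure D3:**
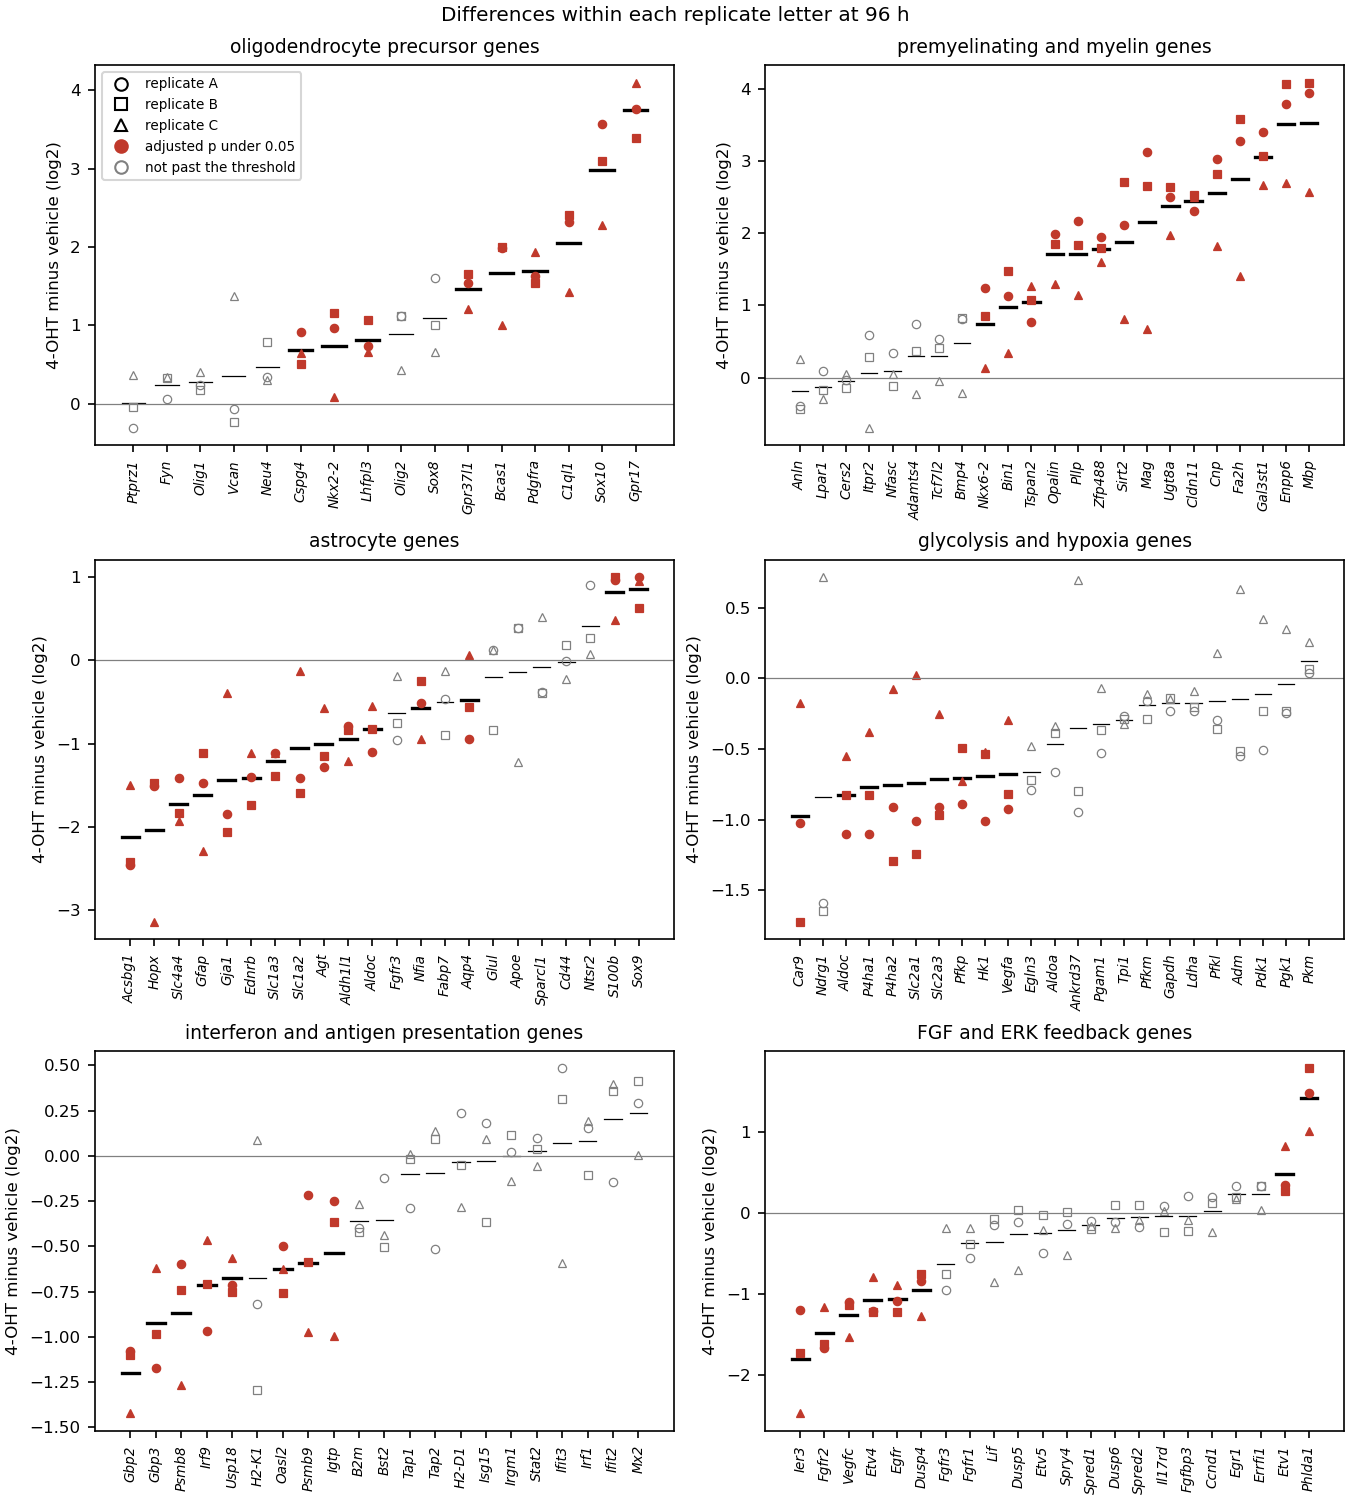
Difference of 4-OHT minus vehicle (log2) within each replicate letter for all tested members of 6 gene lists at 96 h; filled red symbols are members with an adjusted p under 0.05, open grey symbols the others, and bars the fitted difference. All 9 called precursor genes and all 15 called myelin genes lie above 0, 13 of the 15 called astrocyte genes lie below 0, and letter C differs from A and B for many members.

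Growth factor and signalling genes followed no single direction, where over all genes tested 6.48% rose and 7.8% fell. Of 22 tested genes of FGF signalling and ERK feedback, 6 fell and 2 rose (median of -0.23), and with median scaling 3 fell and 1 rose. The fallen ones included the receptor genes Fgfr2 (-1.49, 1 of 2 probes) and Egfr, the ERK targets Ier3 (-1.81), Etv4 (-1.08) and Dusp4 (-0.96), and the growth factor gene Vegfc (-1.26), while Phlda1 (1.42) and Etv1 (0.48) rose. The feedback genes Spry4 (-0.22), Dusp6 (-0.07) and Spred1 (-0.16) did not pass. In the IGF pathway, Igf2 had 9.48, 9.04 and 8.53 in 4-OHT cells and 7.09, 7.19 and 5.19 in vehicle cells and rose 5.77-fold (adjusted p = 3.69e-06). The binding protein genes Igfbp2 (-1.63), Igfbp4 (-1.61) and Igfbp7 (-1.21) and the cytokine feedback gene Socs2 (-1.83) fell, and the adaptor gene Grb10 (0.98) rose, giving 2 higher and 4 lower of 14 (1 higher and 4 lower without the letters). For Igfbp5 replicate C went the other way: it had 11.76 and 11.55 with 4-OHT in A and B, against 12.53 and 12.80 with vehicle, and was 1.05 higher with 4-OHT in C. The difference of -0.33 did not pass and was -1.01 without C (adjusted p = 0.0336).

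In the Notch pathway, the ligand genes Dll3 (1.55), Dll1 (0.97) and Dlk1 (0.87), the glycosyltransferase gene Mfng (1.61) and the feedback gene Nrarp (0.72) rose, and the receptor gene Notch3 (-1.15), Hes6, Lfng and the ligand gene Jag1 (-0.70) fell. That is 5 higher and 4 lower of 22 tested, with a median of 0.17, while 3 rose and 1 fell without the letters, and 5 rose and 2 fell with median scaling. In the BMP and TGF-beta list 3 rose (Bmp7, 0.88, Nog, 0.52, and Tgfbr1, 0.52) and 3 fell (Ltbp1, -1.36, Smad3, -1.18, and Tgfbr2, -0.66) of 24, with a median of -0.05, and without the letters 1 rose and 2 fell. Whether either list exceeded the shares of all genes tested (6.48% higher, 7.8% lower) was not tested.

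Adhesion and matrix genes also moved both ways, where over all genes tested 6.48% rose and 7.8% fell. Rap1gap, which switches off the adhesion GTPase Rap1, had 10.72, 10.85 and 9.57 in 4-OHT cells, against 8.53, 8.78 and 7.34 in vehicle cells, 4.48-fold higher (adjusted p = 4.82e-09). Its other tested probes gave differences of 1.32 and 1.26, both called. In the list of RAP1 and integrin signalling genes, Rap1gap, Lims2 and Rapgef1 (0.50) rose and Rapgef5 (-0.72), Fermt2 (-0.59) and Rap1b (-0.36) fell, which is 3 each way of 23. All 3 falls lost their call with median scaling (2 rose, 0 fell), and 2 rose and 1 fell when letters were ignored. Of 12 integrin genes, Itga9 and Itgb8 (0.70) rose and Itgb5 (-1.50), Itga7 (-0.98) and Itga5 (-0.88) fell, while the laminin receptor subunits Itgb1 (0.04) and Itga6 (-0.29) did not pass. Without C, 1 integrin gene rose and 2 fell, without the letters 1 rose and 1 fell, and with median scaling 2 rose and 1 fell. Of 23 matrix genes 4 rose and 4 fell, and with median scaling 2 rose and 4 fell. Lamb2 had 5.61, 5.44 and 6.02 in 4-OHT cells and 7.84, 7.69 and 7.74 in vehicle cells, 4.18-fold lower (adjusted p = 2.38e-08), and Lama5 (-1.33), Nid2 (-1.19) and Fn1 (-0.75) fell too. Col18a1, with 10.54, 10.48 and 10.97 in 4-OHT cells and 8.64, 8.88 and 9.16 in vehicle cells (3.41-fold), the tenascin genes Tnr (1.61) and Tnc (0.76) and the lectican gene Bcan (0.79) rose. Of 25 tested genes of heparan sulfate synthesis and its core proteins, 6 fell and 2 rose. Hs3st1 and the syndecan gene Sdc4 (-1.59) fell most, Gpc4 (-0.86), Hs3st3b1 (-0.64), Ext1 (-0.43) and Sdc2 (-0.40) also fell, and the epimerase gene Glce had 9.65, 9.74 and 9.20 with 4-OHT, against 7.76, 7.79 and 7.09 with vehicle (3.95-fold higher, called by 2 of 3 probes). Without the letters, 2 of these genes fell and 1 rose, and with median scaling 4 fell and 1 rose.

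Calls among proliferation genes differed between lists, where over all genes tested 6.48% rose and 7.8% fell. Of 32 tested genes of G2 and M phase, 0 passed in the limma fit with letters (2 at an unadjusted p under 0.05) and 0 without the letters, with a median of -0.09 and differences between -0.49 (Pttg1) and 0.09 (Cdc25c). The median was -0.26 in A, -0.29 in B and 0.22 in C, and -0.25 without C. Without C, 2 of them fell. Of 29 genes of S phase and replication 4 fell and 1 rose, with a median of -0.18. The fallen ones were E2f1 (-0.88), Gins2 (-0.74), Chaf1a (-0.49) and Mcm4 (-0.37, 1 of 3 probes), and 1 fell without the letters and 0 with median scaling. E2f2, another activator of the same family, had 8.99, 8.90 and 8.74 in 4-OHT cells and 6.93, 7.38 and 7.38 in vehicle cells, 3.13-fold higher (adjusted p = 2.01e-05). Among 21 cell cycle regulators, the CDK inhibitor gene Cdkn1c had 11.09, 10.94 and 8.67 in 4-OHT cells, against 8.26, 8.14 and 6.75 in vehicle cells, 5.73-fold higher (adjusted p = 1.99e-05), and Mycl rose by 1.14. The CDK inhibitor gene Cdkn2b (-0.99) and the cyclin gene Ccnd2 (-0.88) fell, but both falls lost their call without the letters and with median scaling, and 1 of them without C. Cdkn1a (-0.17), Cdkn1b (-0.11), Ccnd1 (0.02) and Myc (0.15) did not pass. Of 17 p53 target genes 1 fell (Plk2, -0.57) and 0 rose, a call lost without the letters and with median scaling. Of 22 cytosolic ribosomal protein genes 0 passed in the limma fit, 0 at an unadjusted p under 0.05 and 0 without the letters, and none differed by more than 0.17.

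Some genes of glycolysis and hypoxia and some of interferon response and antigen presentation fell. The shares over all genes tested were 6.48% higher and 7.8% lower. In the glycolysis and hypoxia list, 9 of 23 fell and 0 rose, with a median of -0.46, and 22 of 23 differences were negative. Car9, a hypoxia-induced carbonic anhydrase, had the largest called difference (-0.98), followed by the aldolase gene Aldoc (-0.82) and the prolyl hydroxylase genes P4ha1 (-0.77) and P4ha2 (-0.76). Vegfa, an angiogenic factor, had 11.67, 11.91 and 8.71 in 4-OHT cells and 12.60, 12.73 and 9.0 in vehicle cells, so its levels differed more between letters than between agents. The glucose transporter genes Slc2a1 (-0.74) and Slc2a3 (-0.71), Pfkp (-0.70) and Hk1 (-0.69) completed the count. The median was -0.79 in A, -0.51 in B and -0.11 in C, 9 fell without C, 2 fell without the letters and 3 with median scaling. In the interferon list, 8 of 21 fell and 0 rose, with a median of -0.35 and 6 falls without C. Gbp2, an interferon-induced GTPase, had 6.48, 6.26 and 6.38 with 4-OHT and 7.56, 7.36 and 7.80 with vehicle (2.30-fold lower, 1 of 2 probes). Gbp3 (-0.92), the immunoproteasome gene Psmb8 (-0.87), Irf9 (-0.71), Usp18 (-0.68), Oasl2 (-0.63), Psmb9 (-0.59) and Igtp (-0.54) also fell. Without the letters 0 of them were called, with adjusted p from 0.34 for Gbp2 upward, and with median scaling 4 fell. Of 19 ATF4 and serine synthesis genes 1 rose (Aldh1l2, 0.44) and 1 fell (Slc7a11, -0.93), and both calls were lost without C, without the letters and with median scaling.

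Neuronal and synaptic genes were mixed, where over all genes tested 6.48% rose and 7.8% fell. Of 16 tested neuronal genes 4 rose and 3 fell: Dcx (1.0), Ina (0.99), Elavl3 (0.71) and Map2 (0.42) rose, and Sez6 (-2.05), Grm5 (-1.95) and Gap43 (-0.75) fell. Without the letters 0 rose and 2 fell, and with median scaling 2 rose and 2 fell. Of 30 synaptic and channel genes 7 rose and 7 fell, led by Dpp10 upward and by the vesicle GTPase gene Rab3b (-2.0) and the glutamate receptor gene Grm5 downward. The kainate receptor genes Grik2 (0.67) and Grik1 (0.45) and the AMPA receptor auxiliary gene Cacng4 (0.81) rose, and Grin2b (-0.69) and Gria4 (-0.63) fell. Of this list 3 rose and 4 fell without the letters, and 4 rose and 3 fell with median scaling.

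Markers of other cell types were mostly below detection. Of the microglia markers with a probe, 11 of 13 were detected on 0 of the 6 arrays, among them Cx3cr1, Tmem119 and Aif1, and their summed intensity was 259 to 272 with 4-OHT and 264 to 270 with vehicle. Of the 2 tested, 0 were called in the limma fit and 0 had an unadjusted p under 0.05. Of 14 endothelial markers 11 were detected on none, Pecam1 and Cdh5 included, and their sum was 291 to 306 with 4-OHT and 317 to 326 with vehicle. Emcn, the 1 endothelial marker called, was at least 1.80-fold lower. Of 15 mural and fibroblast markers 11 were detected on none, Pdgfrb and Col1a1 included. Their sum was 1604 to 1798 with 4-OHT and 872 to 1627 with vehicle, but 2 of the 3 called, Pdgfra and Cspg4, are also oligodendrocyte precursor genes, and Foxc1 fell 3.58-fold. Of 13 ependymal and choroid markers 8 were detected on none, including Ttr, and their sum was 695 to 789 with 4-OHT and 1235 to 1282 with vehicle. The called ones were Otx2 and Dnah11 (-0.56). The labelled cell type had its own markers: 17 to 18 of 23 NSC genes were detected on 4-OHT arrays and 17 to 19 on vehicle arrays, with Sox1, Msi1, Hmga2 and Emx2 detected on none. The summed intensity of the 23 NSC genes was lower with 4-OHT, at 23352 to 25840 against 30114 to 35027 with vehicle.

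**Figure D4:**
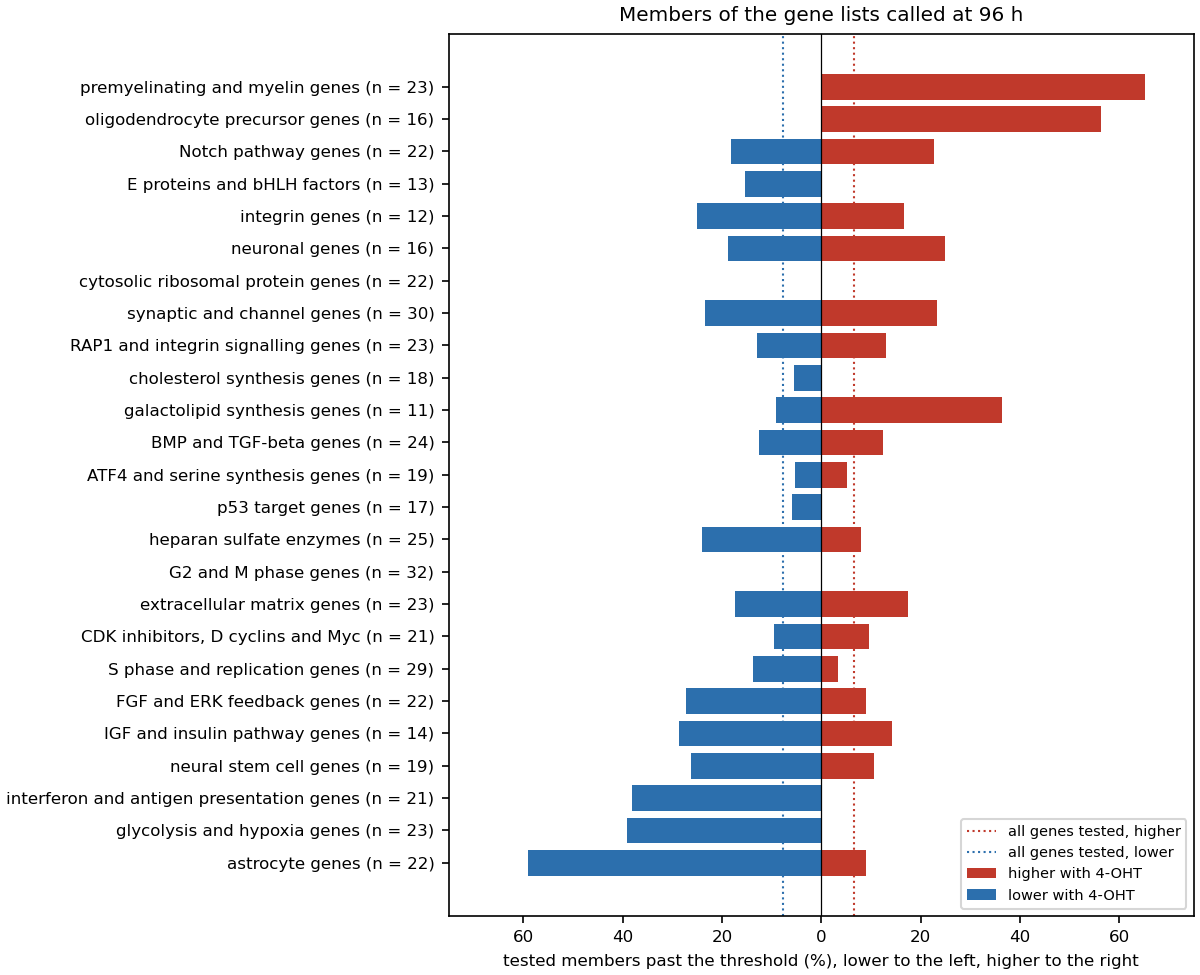
Share of tested members past the threshold (%) in each gene list with at least 10 tested members at 96 h; red bars to the right are members higher with 4-OHT, blue bars to the left members lower, and dotted lines the shares of all genes tested (6.48% higher, 7.8% lower). The myelin and precursor lists have the largest shares higher, and the astrocyte, glycolysis and interferon lists the largest shares lower, of the lists shown.

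How 96 h compares with the neighbouring times was tested as a difference between effects, each against the vehicle of its own time. At 48 h, 761 probes were called (3.5%), and 637 of them were called at 96 h in the same direction, which is 25.1% of the calls at 96 h and 83.7% of those at 48 h. At 144 h, 3550 were called (16.3%), and 1767 of them were called at 96 h in the same direction, 49.8% of the calls at 144 h and 69.6% of those at 96 h. The effect itself differed between 96 and 48 h for 53 probes (0.244%) and between 144 and 96 h for 115 (0.529%). On simulated arrays each of these tests recovered 2.99% of changes of 0.5 (log2), so a probe not called may still have changed. These tests depended on the letters: ignoring them left 1 and 2 calls. Leaving out the 96 h arrays of a letter moved the first count to 6 without A, 15 without B and 172 without C. It moved the second to 33 without A, 47 without B and 118 without C. All arrays of 48 and 144 h stayed in these fits.

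Between 48 and 96 h, the effect moved for 5 of 23 myelin genes, all upward, and for Id1, and without the letters 0 of the myelin genes passed. The effect on Mbp was 3.53 at 96 h and 1.37 at 48 h (difference of 2.16 ± 0.31 (SE), adjusted p = 0.00485). For Mag, not above background in vehicle cells at 48 h, the effect was 2.15 at 96 h and 0.11 at 48 h, for Opalin 1.71 and -0.13, and for Enpp6 3.52 and 1.43. The 96 h effect was also larger for Ugt8a, Lims2, Tafa4 and Slc24a3, and for Cox4i2, a subunit of cytochrome oxidase (2.51 at 96 h and 0.30 at 48 h, with vehicle cells not above background at either time). The Cox4i2 effect was 3.57 and 3.09 within letters A and B at 96 h and 0.88 within C. In the other direction, the effect on Id1 was more negative at 96 h than at 48 h (adjusted p = 0.000177). Its 4-OHT level was not above background at 96 h, so the size of that change is not known, and its vehicle level was 9.08 ± 0.42 at 96 h and 6.81 ± 0.06 at 48 h (SD, n = 3 each). Gfap, the inflammatory caspase gene Casp4 and the cytokine gene Tslp had effects of -1.62, -1.91 and -1.69 at 96 h and of -0.04, -0.17 and -0.08 at 48 h. Igfbp5 had an effect of -0.33 at 96 h and 2.21 at 48 h.

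Between 96 and 144 h, the test of the difference was passed upward by 4 of 21 interferon genes and 8 of 29 S phase genes, and downward by 0 of either list. With median scaling 4 interferon genes and 0 S phase genes passed, and without the letters 0 of both. Over all probes 65.2% of the calls in this test were higher, and 20.2% with median scaling. Usp18, which removes the interferon-induced modifier ISG15, had an effect of 1.94 at 144 h and -0.68 at 96 h (difference of 2.62, adjusted p = 3.89e-06), and Oasl2 one of 1.92 at 144 h and -0.63 at 96 h (difference of 2.55, adjusted p = 1.58e-06). The median effect of the interferon list was 0.39 at 144 h and -0.35 at 96 h. In the S phase list 20 of 29 genes were called higher at 144 h and 1 at 96 h. Mcm4, a subunit of the replicative helicase, had an effect of 0.70 at 144 h and -0.37 at 96 h, and Chaf1a, of the chromatin assembly complex, one of 0.75 at 144 h and -0.49 at 96 h. With median scaling the median of all probes in this test was -0.20, against -0.01 with quantile scaling. Car3 had an effect of -0.54 at 144 h and -2.97 at 96 h, and Pdgfra one of 3.07 at 144 h and 1.70 at 96 h. The stress gene Nupr1 went the other way, with -2.63 at 144 h and -0.29 at 96 h. The 144 h groups held 2 arrays each, A and C.

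**Figure D5:**
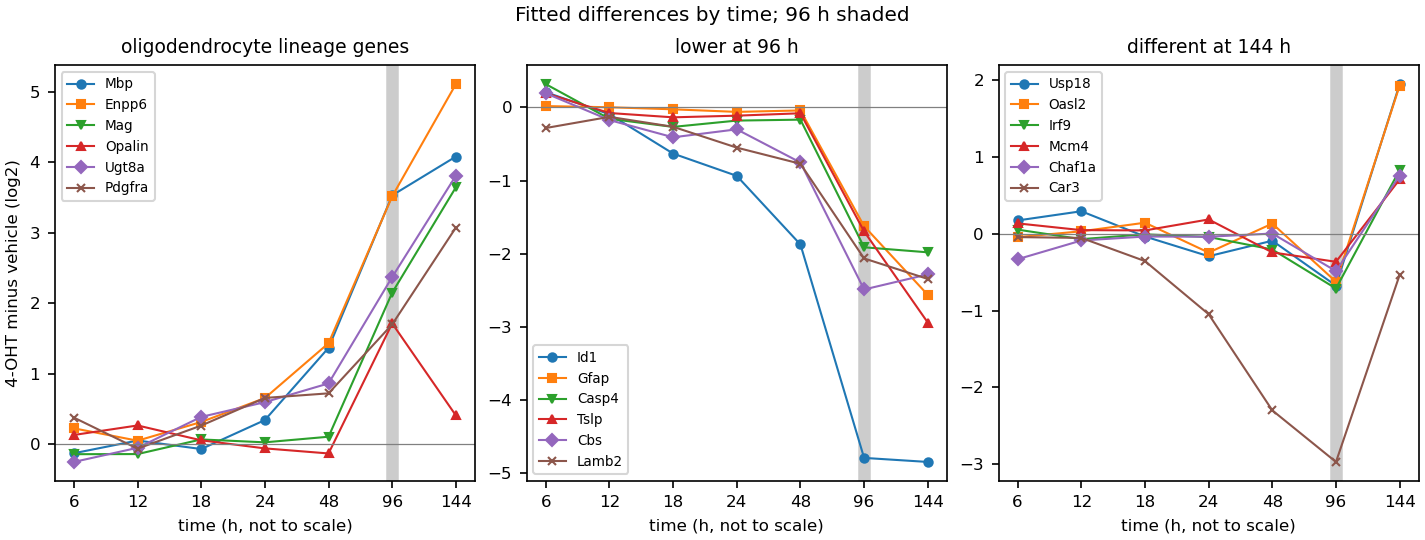
Fitted difference of 4-OHT minus vehicle (log2) at each of the 7 times (h, not to scale) for genes named in the tests between times, with 96 h shaded. Mbp, Enpp6, Mag, Opalin and Ugt8a have larger effects at 96 h than at 48 h, Gfap, Casp4 and Tslp lie near 0 at 48 h and well below 0 at 96 h, and Usp18, Oasl2 and Irf9 lie below 0 at 96 h and above 0 at 144 h.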

How the data were processed

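Transcript levels were measured on Illumina MouseWG-6 BeadChips, per the labels' design text. For every array the deposited table gives the mean bead intensity of each probe, unlogged, with its detection p-value, per the file headers; GenomeStudio is named in the submitters' processing notes. A second deposited table holds log2 values of the authors, quantile normalized with lumi per the labels' design text, and served as an alternative. Versions of both tools are not given in the sources used here.

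Of 45281 probes, 21 with fields out of step were left out. Intensities of all 40 arrays went through neqc of limma 3.58.1 (R 4.3.3): normexp background, offset of 16, quantile scaling, log2. The 21740 probes with detection p under 0.01 on at least 3 arrays were tested; 18353 carried 1 gene symbol, and symbols were checked through Entrez identifiers in the RefSeq table (0 changed). The limma model held a term for each letter within each time and 1 effect of 4-OHT per time (13 residual degrees of freedom), with trended moderation and Benjamini-Hochberg adjustment over probes. Its residual spread was shared by all 40 arrays, also for genes near background at early times. The 96 h arrays alone leave 2 residual degrees of freedom, and that fit with the letters called 2977 probes. All tests were two-sided, with calls at adjusted p under 0.05. The number of arrays limits the precision.

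Letters were taken as pairs because the comparison was set with the replicate letter as a block. The deviations of a letter's arrays from their group means had correlations over probes of 0.52 for A, 0.57 for B and 0.71 for C. Vehicle A correlated slightly better with 4-OHT B (0.55) than with 4-OHT A, and vehicle B had 0.40 with 4-OHT A. Because both C arrays stood apart, these values set C against A and B and cannot show that A and B were separate pairs.

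The comparison, the 30 gene lists and the rules were chosen with earlier results of these data known. Genes were named by rule: the 14 largest called differences each way with the same sign in all letters and groups apart, the Id genes and Rap1gap, up to 4 called members of each list (the 2 largest differences where fewer than 2 were called), and the 5 largest differences each way in the tests between times. Other list members are named to complete a count and were chosen after their values were seen, among them Hes5. Each list member was read from its tested probe with the highest mean. Of the 193 genes reported from the fits, 84 had over 1 tested probe, for 39 only some probes were called, and 0 had called probes of opposite direction.

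On arrays simulated from these means and variances, with 67, 67 and 66 of 21740 probes changed at 96 h by 0.5, 1 and 2 (log2), the 96 h test recovered 26.9%, 89.6% and 98.5% of them, and 8.33% of its calls were false.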

Additional observations from a re-analysis of the deposited data

Results flagged for a closer look

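The genes below stood out because the effect of 4-OHT at 96 h differed from that at a neighbouring time in a test of the difference itself (adjusted p under 0.05, limma). Values are differences between effects on the log2 scale. No group had the 4 arrays needed to look for single deviating arrays.

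Effects at 96 h minus those at 48 h were positive for Cox4i2 (2.21), Mbp (2.16), Enpp6 (2.08), Mag (2.04), Opalin (1.84), Ugt8a (1.51), Lims2 (1.49), Tafa4 (1.22) and Slc24a3 (0.90). They were negative for Id1 (-2.92), Igfbp5 (-2.53), Casp4 (-1.74), Cbs (-1.74), Tslp (-1.61), Gfap (-1.58) and the laminin gene Lamb2 (-1.29). The sizes for Id1, Mag and Cox4i2 are not exact, because Id1 in 4-OHT cells at 96 h, Mag in vehicle cells at 48 h and Cox4i2 in vehicle cells at both times were not above background.

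Effects at 144 h minus those at 96 h were positive for Usp18 (2.62), Oasl2 (2.55), Car3 (2.43), Timeless (1.80), Lor (1.71), Irf9 (1.54), Ugt8a (1.44), Pdgfra (1.37), Chaf1a (1.24), Bcas1 (1.19), Mcm4 (1.07), Gins2 (1.03), Grik1 (0.92) and Kcnip1 (0.86). They were negative for Nupr1 (-2.35), Fbxo32 (-1.71), Osbpl3 (-1.64), Gadd45b (-1.63) and Actc1 (-1.63). Timeless, Fbxo32, Osbpl3, Gadd45b and Nupr1 were not called at 96 h itself.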

How the results depend on the processing

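The 2540 calls at 96 h depended on how the letters were treated. Without the replicate block 979 probes were called, with 1 replicate block effect per letter over all times 1289, and with the 96 h arrays fitted alone and no block 502. Median scaling left 1447 and array weights gave 4934. The count lay between 1353 (without A) and 2186 (without C) when a letter was left out, and within 1.5 times of 2540 under the other alternatives. Of 198 probes reported, 0 reversed under any alternative. A change of sign counted only if the main or the alternative fit called the probe. Changing the block, fitting 96 h alone or leaving out arrays of other times keeps each difference at 96 h as it was, so no reversal could occur there. The call was lost by 109 with 96 h fitted alone and no block, 79 without the block, 66 with 1 effect per letter, 66 with median scaling, 51 without A, 52 without B, 32 without C and 5 with the authors' log2 values.

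The test of 96 h against 48 h gave 53 calls. It gave 1 with no replicate block and 1 with a replicate block of 1 effect per letter, 32 with the block as a random effect, 113 with array series as the block, 83 with 18 to 144 h only, 145 with median scaling (26.9% higher, against 43.4%), 82 with no background correction, 96 with an offset of 50, 19 with no filter on dim probes and 1286 with array weights. It gave 86 without the dim 6 h vehicle array C and its pair, an alternative chosen after seeing the data, and 6 to 172 when a letter was left out.

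The test of 144 h against 96 h gave 115 calls. It gave 2 with no replicate block, 3 with 1 effect per letter, 33 with the block as a random effect, 185 with array series as the block, 188 with median scaling (20.2% higher, against 65.2%), 61 with no filter, and 33 to 118 when a letter was left out. Leaving out a letter removed its 96 h arrays only, and all arrays of 144 h stayed in the fit. The causes of these shifts were not tested. Differences of genes near background are compressed on this scale, which has an offset of 16.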
